A study of Mus musculus with 15 samples.

Results

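The transcriptome of fibroblasts treated by TNFα was compared with that of untreated fibroblasts of the same line. The comparison rests on 6 of the 15 one-colour microarrays of the series, chosen by their labels: 3 arrays of cells given TNFα and 3 arrays of control cells. The cells were Mouse Embryonic Fibroblasts (MEFs) of the Balb/c 3T3 line, clone A31, a single established clone, so that the arrays are not separate animals. The methods give 3 independent experiments, but which arrays share one is not stated, and p-values measure the spread between these arrays alone. TNFα was given at 10 ng/ml, for 24 h in the study's account of its arrays, and the controls received no cytokine. All groups shared the line and the medium with fetal calf serum and antibiotics. IL-1β (3 arrays, 1 ng/ml, with an exposure time that is not stated for the group) and TGFβ1 (3 arrays, 5 ng/ml, 24 h) served for direct comparisons. The IL-6 arrays entered the model only. Each array carries the number with which its label begins, and values are always given in the order control 1, 6 and 11, then TNFα 4, 9 and 14.

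TNFα is a cytokine of macrophages and other immune cells that signals through the receptors TNFR1 and TNFR2. The adaptor TRADD, the kinase RIPK1 and the TRAF and cIAP proteins then activate the IκB kinase, which marks IκB proteins for degradation and frees NF-κB dimers to enter the nucleus. In stromal cells, TNFα is known for inducing chemokines, adhesion molecules and matrix-degrading enzymes, and for opposing the adipocyte program. Interferon-stimulated genes can follow as a later layer, through autocrine type I interferon and IRF1.

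Levels are log2 signals relative to the 75th percentile of the array, so a level of 0 is that percentile, and levels of different genes are not comparable. Fold changes are on the log2 scale, TNFα minus control, and come from a linear model with a term for the slide. They can therefore differ slightly from the difference of the group means. A gene was called at a q-value below 0.05 (limma, Benjamini-Hochberg) with a fold change of at least 1.5. Of 13172 genes tested, 856 were called higher (6.5%) and 1106 lower (8.4%), with a median fold change of 0.01. The change was at least 4-fold for 164 genes called higher and 148 called lower. For 40 of the genes called higher, no control array was well above background, and for 72 of those called lower, no TNFα array was. The direction was the same on both slides for 856 of 856 genes called higher and for 1105 of 1106 called lower. Calls made from the same arrays largely fix this agreement in advance, so it is no separate support. Without control 6, the only control on the second slide, 570 genes were called higher and 750 lower. Without TNFα 14, the only TNFα array on the first slide, the numbers were 583 and 890. In bulk RNA, fewer cells expressing a gene and less RNA per cell cannot be told apart.

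The labelled cell type was checked with 12 fibroblast markers, which were all well above background on the 6 arrays. Of these, *Dcn* was called higher and *Col1a1*, *Col1a2* and *Col3a1* lower. Of 15 leukocyte markers, 6 were tested and 7 were above background on no array, among them *Ptprc* (CD45) and the macrophage marker *Adgre1*. The summed level of the 15 ranged from 5.27 to 6.10 on the controls and from 5.27 to 6.25 on the TNFα arrays. The brightest members weigh most in such a sum, so it cannot show whether these cells were present. The only leukocyte marker called higher, and named for that reason, was the macrophage mannose receptor *Mrc1* at 3.67, above background on 1 control array. Among 11 endothelial markers 3 were tested, none of them called, and among 10 epithelial markers the only one tested was *Krt19*, which was called lower. The part of other cell types in the results was not tested beyond these values.

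To go beyond the leading genes, 59 lists of genes were drawn up by pathway or gene class, with 1479 genes in all. Of these, 1141 were tested, 212 were called higher and 182 lower. A gene was tested if its probe was well above background on all arrays of at least 1 group. A member that entered through the group where it was high could thus hardly fail to differ, and the lists are described by their counts and medians without a test of the list.

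**Figure D1:**
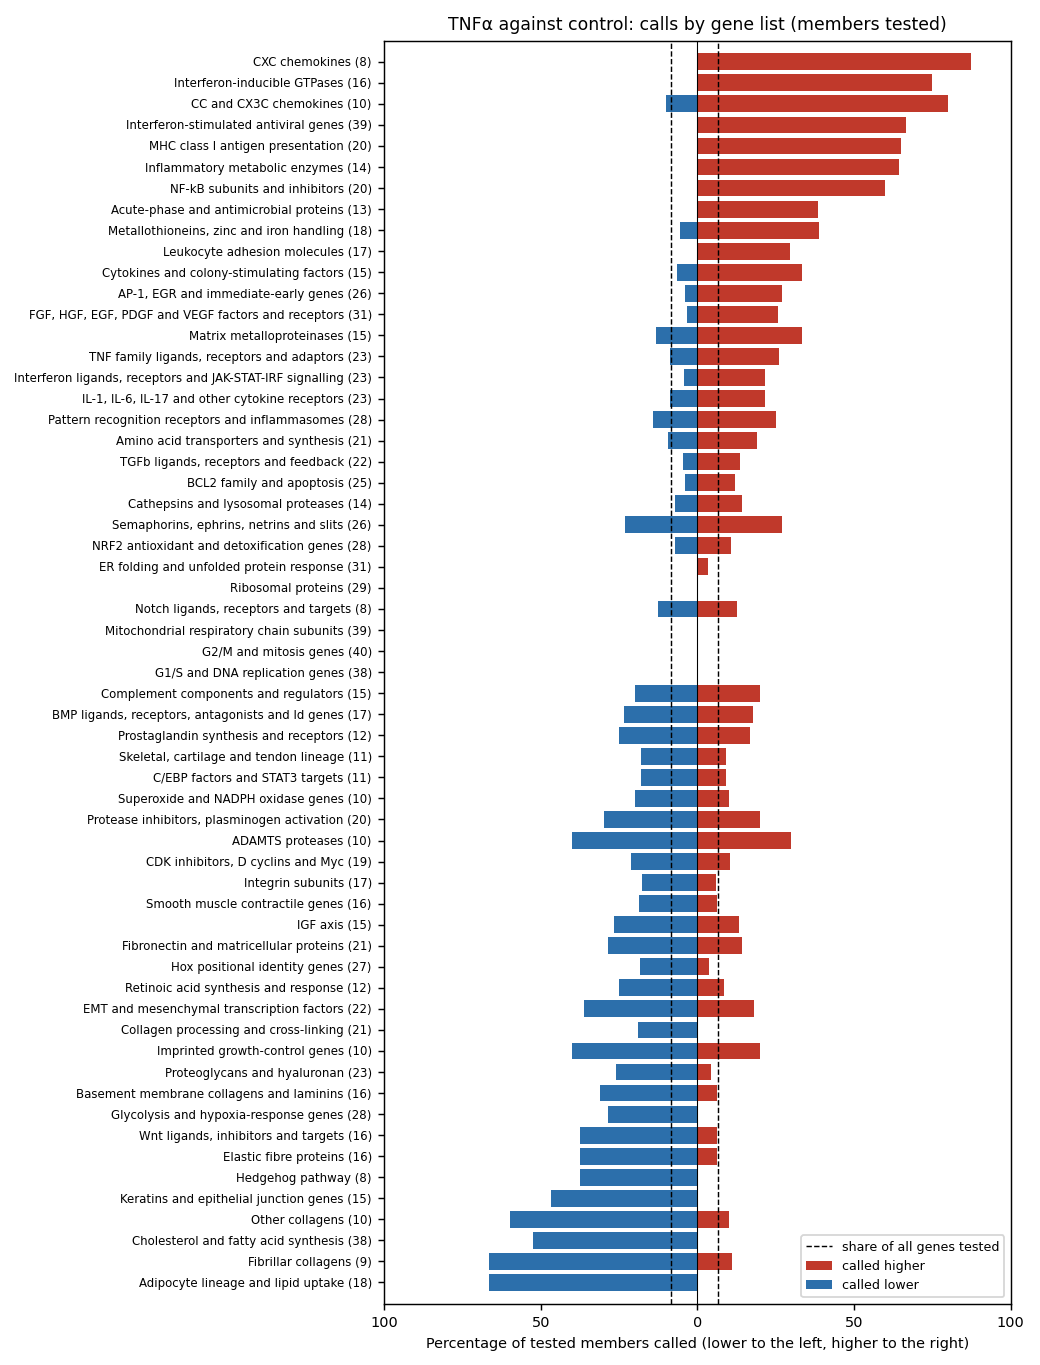
For each of the 59 gene lists, bars give the percentage of tested members called lower (left, blue) and higher (right, red) with TNFα, with the number tested in parentheses, and dashed lines mark the shares among all genes tested (8.4% lower, 6.5% higher). Chemokines, NF-κB, interferon and MHC class I lists lie at the top, and adipocyte, collagen and cholesterol lists at the bottom.

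The DNA in front of the genes was read for letters that NF-κB and interferon-regulated factors are known to bind. The 250 bases before the RefSeq start (GRCm38.p6, both strands searched) were taken for 10494 of the 13172 genes tested. One motif was the NF-κB consensus, which is GGG, a purine, any 2 bases, 2 pyrimidines and CC. The other was GAAANNGAA, the core of the interferon-stimulated response element, in which N is any base. Of all 27025 genes with such a promoter in the table, 8.23% held the NF-κB consensus and 8.18% the interferon core, and of the 10494 genes tested 10.3% and 7.49%. Among genes called higher the shares were 15.2% and 11.2% of 660, and among genes called lower 10.8% and 6.77% of 871. In the 100 largest rises they were 22% and 19%, and in the 100 largest falls 11.0% and 9.0%. The NF-κB consensus was present in 7 of 16 promoters of the list of NF-κB subunits and inhibitors, in 3 of 7 of CXC chemokines and in 6 of 17 of MHC class I genes. The interferon core was present in 13 of 31 promoters of interferon-stimulated antiviral genes and in 9 of 9 of interferon-inducible GTPases. Of lists whose members fell, the adipocyte list held the NF-κB consensus in 4 of 12 promoters and the cholesterol list in 6 of 26. The shares did not follow the calls in other lists. The NF-κB consensus was present in 5 of 9 promoters of superoxide and NADPH oxidase genes and in 4 of 10 of the retinoic acid list. It was present in 0 of 10 in each of the complement, acute-phase and leukocyte adhesion lists. The interferon core was present in 5 of 21 promoters of ribosomal proteins, of which none was called. A match is a run of letters and not a bound site, and the 2 motifs can overlap.

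In each of 5 lists the gene called higher with the largest fitted rise among those with a match is shown, 5′ to 3′ in the direction of the gene, from RefSeq (GRCm38.p6) and ending at the base before the start. Capitals mark the NF-κB consensus in *Nfkbie* (chr17:45555450-45555699, plus strand, first base 106 before the start) and *Ccl20* (chr1:83116516-83116765, plus strand, 80 before), and the interferon core in *Cxcl9* (chr5:92328080-92328329, minus strand, 175 before) and *Rsad2* (chr12:26456453-26456702, minus strand, 119 before). In *Gbp5* (chr3:142496684-142496933, plus strand) they mark an interferon core (164 before) and an NF-κB consensus (77 before). The motif on the other strand is read as its reverse complement. For *Cxcl9*, which no control array measured above background, the fitted rise is not a measured one, and *Cxcl10*, whose promoter also holds matches, had the largest measured rise of its list.
Nfkbie: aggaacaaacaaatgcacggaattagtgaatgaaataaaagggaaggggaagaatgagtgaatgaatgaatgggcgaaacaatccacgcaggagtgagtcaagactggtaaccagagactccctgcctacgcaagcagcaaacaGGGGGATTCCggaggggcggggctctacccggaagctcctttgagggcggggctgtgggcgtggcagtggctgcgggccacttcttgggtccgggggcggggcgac
Ccl20: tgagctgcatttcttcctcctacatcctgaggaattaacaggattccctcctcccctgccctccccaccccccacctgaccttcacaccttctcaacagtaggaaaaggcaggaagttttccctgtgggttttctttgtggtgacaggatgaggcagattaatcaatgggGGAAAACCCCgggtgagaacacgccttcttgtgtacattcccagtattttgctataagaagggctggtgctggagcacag
Cxcl9: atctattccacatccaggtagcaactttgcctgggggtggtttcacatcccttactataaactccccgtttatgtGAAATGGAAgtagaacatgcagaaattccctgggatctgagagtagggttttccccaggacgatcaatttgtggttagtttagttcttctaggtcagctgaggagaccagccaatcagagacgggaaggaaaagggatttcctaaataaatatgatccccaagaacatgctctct
Rsad2: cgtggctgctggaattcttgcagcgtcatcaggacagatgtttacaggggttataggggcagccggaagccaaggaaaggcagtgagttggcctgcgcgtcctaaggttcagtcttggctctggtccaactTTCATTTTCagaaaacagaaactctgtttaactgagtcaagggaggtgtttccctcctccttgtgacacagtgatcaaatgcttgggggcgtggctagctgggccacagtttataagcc
Gbp5: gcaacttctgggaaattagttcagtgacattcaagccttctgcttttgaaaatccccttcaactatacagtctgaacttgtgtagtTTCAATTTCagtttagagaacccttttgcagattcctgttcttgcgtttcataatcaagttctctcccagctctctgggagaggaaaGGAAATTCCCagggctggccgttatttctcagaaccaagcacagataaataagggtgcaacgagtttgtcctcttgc

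**Figure D2:**
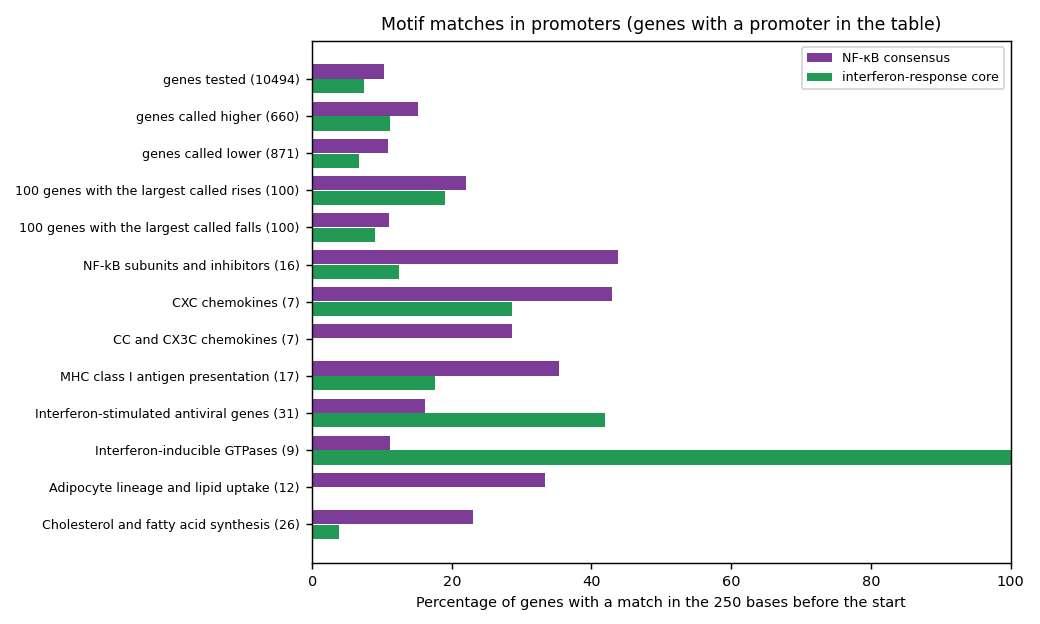
Bars give the percentage of genes with at least 1 match to the NF-κB consensus (purple) or the interferon core (green) in the 250 bases before the start, for all genes tested, called genes and 8 lists, with the number of genes that have a promoter in the table in parentheses. Interferon-inducible GTPases reached 100% for the interferon core, against 7.49% of the genes tested.

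NF-κB subunits and inhibitors rose, the inhibitors most. Of 21 listed genes 20 were tested, 12 were called higher and none lower, with a median of 1.00. *Nfkbie*, which encodes the inhibitor IκBε and has the promoter shown above, lay at -1.09, -0.70 and -0.90 on the controls and 3.06, 3.06 and 2.97 on the TNFα arrays, a rise of 3.83 ± 0.10 (SE, q = 3.45e-09). *Tnfaip3* encodes A20, a ubiquitin-editing enzyme that ends NF-κB signalling, and lay at -0.83, -0.82 and -0.77 against 3.20, 2.94 and 2.96 (3.80 ± 0.10, q = 3.45e-09). *Nfkbia*, the gene of IκBα, lay at 3.82, 3.44 and 3.72 against 6.06, 5.85 and 6.32 (2.52 ± 0.08, q = 1.5e-08). In each of the 3 genes the groups were far apart relative to their spread. *Tnip1*, a partner of A20, rose by 2.37 and *Relb*, a subunit of the alternative NF-κB dimer, by 2.03. Of the subunits, which were named after their values were seen, *Nfkb1* (1.22), *Nfkb2* (1.25), *Rel* (0.88) and *Rela* (0.59) were called too, *Rela* by 1 of its 2 tested probes.

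In the TNF family a minority of genes was called, most of them higher. Of 29 listed members of the TNF family and its adaptors 23 were tested, with a median of 0.28. Of these, 6 were called higher (26.1%, against 6.5% of all genes tested) and 2 lower (8.7%, against 8.4%). The adaptor *Traf1* lay at -1.93, -3.12 and -2.12 on the controls and 2.36, 1.64 and 2.47 on the TNFα arrays (4.47 ± 0.55, q = 0.000218). The death receptor *Fas* (2.95) and the ubiquitin ligases of the receptor complex *Birc3* (2.40) and *Birc2* (0.92) rose with it. *Tnfrsf1a*, the gene of TNFR1, lay at 4.58, 5.04 and 4.70 against 4.00, 4.16 and 3.96 and fell by 0.82 (q = 0.000621), whereas TNFR2, *Tnfrsf1b*, was not called (-0.27, q = 0.0979). Control and TNFα arrays of *Tnfrsf1a* did not overlap. *Tnf* itself was called higher at 0.64 (q = 0.0262), a call lost without TNFα 9, TNFα 14, control 1 or control 6, and its groups overlapped.

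The 2 chemokine lists had the highest medians of all lists. Of 16 CXC chemokines listed, 8 were tested (6 were above background on all control arrays), 7 were called higher and none lower. The median was 3.25, or 2.71 with the members below background on every control array set to their bound. *Cxcl10*, a ligand of CXCR3 that attracts T cells, lay at -1.62, -0.53 and -0.95 on the controls and 4.69, 4.85 and 4.59 on the TNFα arrays (5.81 ± 0.61, q = 7.82e-05). *Cxcl9*, another CXCR3 ligand, was above background on no control array and rose at least 15.8-fold (q = 9.43e-05), and the neutrophil attractant *Cxcl2* at least 5.55-fold. *Cxcl1*, which also attracts neutrophils, lay at 1.34, 1.27 and 1.20 against 5.18, 4.96 and 4.60 (3.56 ± 0.19). The homeostatic chemokine *Cxcl12* rose by 1.18, with not every tested probe called. In each of these genes the 3 TNFα arrays lay above the 3 controls.

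Of 19 CC and CX3C chemokines listed, 10 were tested, 8 were called higher and 1 lower, with a median of 2.25. *Ccl5*, which attracts T cells and monocytes, lay at -1.17, -1.32 and -0.29 on the controls and 7.03, 7.75 and 7.52 on the TNFα arrays, the largest rise of all genes tested (8.41 ± 0.31, q = 3.56e-08). *Ccl8* rose by 4.26 and *Ccl9* by 2.84. *Ccl20*, which draws CCR6-bearing lymphocytes, lay at -2.93, -3.04 and -3.36 against 0.78, 1.37 and 0.01 (3.70 ± 0.37). *Ccl2*, the main attractant of monocytes, was already high on the controls at 6.00, 6.42 and 6.37 and reached 8.86, 8.82 and 8.77 (2.59 ± 0.24). TNFα and control arrays did not overlap for these genes. *Ccl27a* was the member called lower (at least 1.54-fold), a call lost without TNFα 4, TNFα 14, control 6 or control 11.

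Of 23 listed cytokines and colony-stimulating factors 15 were tested, 5 were called higher and 1 lower (none lower without TNFα 4, TNFα 14 or control 6), with a median of 0.14. The member called lower was *Kitl* (stem cell factor), a growth factor of blood cell precursors, at 2.45, 3.11 and 2.49 against 1.53, 2.22 and 1.68 (-0.92, q = 0.0259). *Csf2* (GM-CSF), which drives granulocytes and macrophages, lay at -5.58, -6.41 and -6.11 against -0.06, -1.45 and -0.53 (5.52 ± 0.59, q = 9.26e-05), and 1 control array was above background. *Csf1* (M-CSF), the macrophage survival factor, lay at 5.44, 5.11 and 5.67 against 6.64, 6.51 and 6.79 (1.31 ± 0.10), and *Il34*, which shares its receptor, rose by 1.39. *Tslp*, a cytokine that acts on dendritic cells, rose by 3.49, with not every control array above background. All 3 TNFα arrays exceeded all 3 controls for these 4 genes. *Il6* lay at -3.27, -2.78 and -2.77 against -2.98, -2.74 and -3.13, and the groups overlapped (0.01, q = 0.994).

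Most interferon-stimulated antiviral genes rose. Of 42 listed antiviral genes 39 were tested, 26 were called higher and none lower, with a median of 1.15 and with 38 of the 39 above background on all control arrays. With the 6 arrays of both groups alone in the model, 17 were called. *Rsad2* (viperin), whose product blocks viral replication, lay at -5.55, -4.30 and -6.0 on the controls and -1.11, -0.33 and -1.25 on the TNFα arrays (4.48 ± 0.82, q = 0.00319). Not every control array of *Rsad2* was above background. *Ifit1*, which binds viral RNA, lay at -1.23, 0.37 and 0.35 against 2.99, 3.78 and 2.76 (3.30 ± 0.52). *Ifit3* lay at -0.76, 0.59 and 0.32 against 3.26, 4.38 and 3.6 (3.83 ± 0.67), with its near-identical copy *Ifit3b* at 3.73, and the 2 probes may share signal. The 3 control arrays were spread more widely than the TNFα arrays in *Rsad2* and *Ifit1*, but the groups did not overlap. *Isg15*, the ubiquitin-like modifier, rose by 1.76, a call lost without control 6.

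Of 18 listed interferon-inducible GTPases, which act on the vacuoles of intracellular microbes, 16 were tested, 12 were called higher and none lower, with a median of 1.90. *Gbp2* lay at -0.08, 0.24 and 0.87 against 3.78, 4.09 and 4.16 (3.68 ± 0.28, q = 6.63e-06), *Gbp2b* rose by 3.98 and *Gbp3* by 3.61. *Gbp5* lay at -7.70, -4.00 and -4.68 against -0.48, 0.89 and -0.01, a rise with a wide error (5.59 ± 1.19, q = 0.00715). The lowest *Gbp5* value was that of control 1, and 2 control arrays were above background. All TNFα arrays of *Gbp5* were higher than all controls. Gbp genes are close in sequence, and a probe can take up signal of another member.

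Of interferon signalling itself, few genes were called. Of 27 listed ligands, receptors and JAK, STAT and IRF genes 23 were tested, 5 were called higher and 1 lower, with a median of 0.15, and 3 were called higher without TNFα 14, control 1 or control 6. The transcription factor *Irf1* lay at 3.51, 3.71 and 3.91 on the controls and 5.18, 5.22 and 5.25 on the TNFα arrays (1.49 ± 0.14, q = 3.5e-05). *Socs1*, a feedback inhibitor of JAK kinases, rose by 0.93 and the receptor subunit *Ifngr2* by 0.91. *Ifnb1*, the gene of interferon β, was above background on no control array and on all TNFα arrays and rose at least 1.98-fold (q = 0.0275), a call lost without TNFα 14, control 1 or control 6. *Stat3*, which carries signals of IL-6 family cytokines, fell by 0.87 (q = 0.00269).

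**Figure D3:**
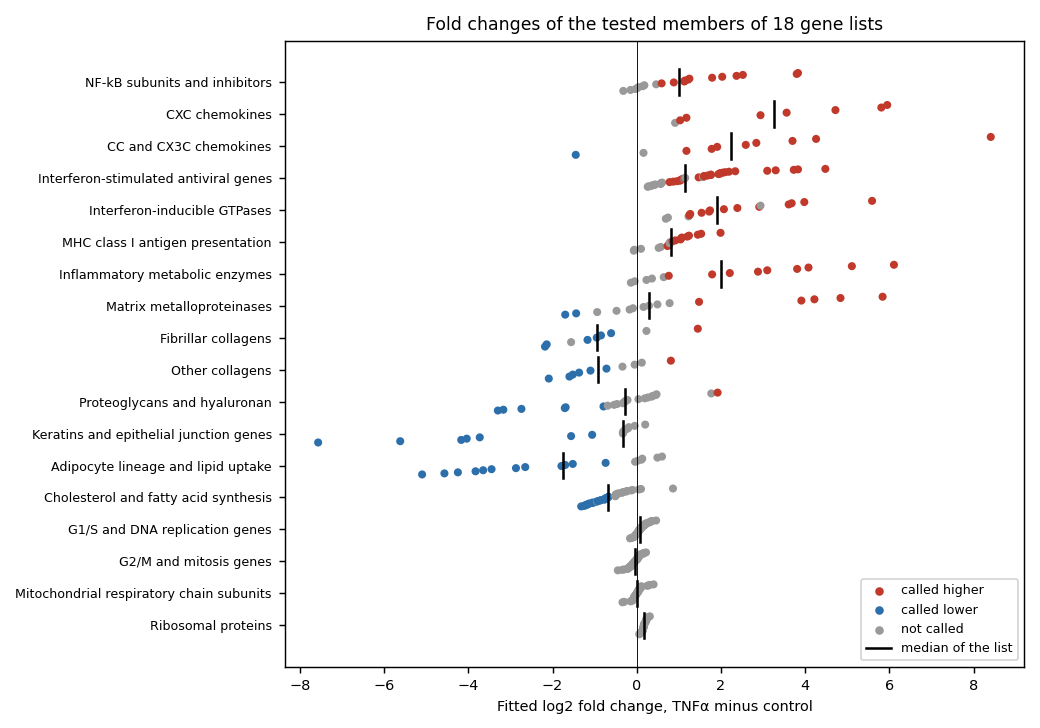
Each point is the fitted log2 fold change (TNFα minus control) of 1 tested member of 18 lists, red where called higher, blue where called lower and grey where not called, and the black bar is the median of the list. Chemokines and interferon-inducible GTPases spread to the right, adipocyte genes and keratins to the left, and cell cycle, respiratory chain and ribosomal genes gather near 0.

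MHC class I presentation genes rose by small steps. Of 22 listed genes 20 were tested, all of them above background on every control array, 13 were called higher and none lower, with a median of 0.82. *Psmb10*, a catalytic subunit of the immunoproteasome that cuts peptides for presentation, lay at 3.84, 3.43 and 4.01 against 5.58, 5.71 and 5.80 (1.99 ± 0.13, q = 1.87e-06). *Psmb8*, another of its subunits, rose by 1.53. *Tapbp* (tapasin), which loads the peptides, lay at 3.79, 3.92 and 4.35 against 5.13, 5.39 and 5.63 (1.45 ± 0.16). *B2m*, the light chain of the class I molecule, rose by 0.73 from a high level, and the peptide transporter *Tap1* was not called (0.52, q = 0.0735). The H2 genes of the list are close in sequence, and their probes may share signal.

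Complement genes were called in both directions. Of 25 listed complement genes 15 were tested, 3 were called higher and 3 lower, with a median of -0.14. Factor B, *Cfb*, of the alternative pathway lay at -4.14, -3.75 and -4.74 on the controls and 0.31, 1.71 and 0.62 on the TNFα arrays (5.16 ± 0.55, q = 9.06e-05). The central component *C3* lay at 0.30, 1.98 and 1.12 against 4.47, 6.00 and 5.09 (3.95 ± 0.69, q = 0.00243). *Serping1*, the C1 inhibitor, was above background on no control array and rose at least 5.76-fold. Factor D, *Cfd*, the adipocyte protease that activates factor B, went the other way, from 0.10, 0.24 and 1.17 to -3.23, -2.82 and -2.74 (-3.65 ± 0.46, q = 0.000253). *Cd55*, which protects cells from complement, fell by 2.09. Each of these genes had no overlap between the groups. Of 25 acute-phase and antimicrobial genes 13 were tested, 5 were called higher and none lower. *Saa3*, a serum amyloid A of mouse tissues, lay at -3.42, -3.46 and -3.69 against 3.80, 5.30 and 3.80 (7.81 ± 0.67, q = 1.78e-05), *Slpi*, a secreted inhibitor of neutrophil elastase, rose by 4.30 and *Saa1* by 2.95. *Lcn2*, the iron-siderophore binder, was not called (-0.32, q = 0.843), and its control and TNFα arrays overlapped.

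Adhesion molecules, receptors and sensors moved in single members. Of 20 leukocyte adhesion genes 17 were tested and 5 were called higher, or 3 without TNFα 4, TNFα 14, control 1 or control 6. *Icam1*, a ligand of leukocyte integrins, lay at -4.17, -3.69 and -3.31 against 2.06, 1.99 and 2.54 (5.92 ± 0.26, q = 1.34e-07), and *Vcam1* at 2.03, 2.83 and 2.41 against 4.27, 4.56 and 4.46 (2.01 ± 0.28). Both genes stood clear of the controls on every TNFα array. Of 26 cytokine receptors 23 were tested, 5 were called higher and 2 lower (1 lower without TNFα 4 and none without TNFα 14). Their largest rise was *Il1r2*, the decoy receptor of IL-1, at -6.81, -5.40 and -5.58 against -1.32, -0.64 and -1.58 (4.50 ± 0.50, q = 0.000105), with 1 control array above background. *Il1rl1*, the receptor of IL-33, rose by 2.03 and the common γ chain *Il2rg* by 2.45.

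Of 32 pattern recognition and inflammasome genes 28 were tested, 7 were called higher and 4 lower, with a median of 0.02, and without TNFα 4, TNFα 14 or control 6 the number called lower was 2. The muramyl dipeptide sensor *Nod2* lay at -5.66, -6.23 and -6.31 on the controls, of which 1 was above background, and -2.90, -2.86 and -3.04 on the TNFα arrays (3.12 ± 0.25, q = 9.03e-06), and its kinase *Ripk2* rose by 2.65. The pore-forming protein of pyroptosis, *Gsdmd*, lay at 0.16, 0.44 and 0.49 against 2.38, 2.80 and 3.13 (2.52 ± 0.24), and *Casp4*, which cleaves it, rose by 1.52. The lipoprotein receptor *Tlr2* rose by 1.84, while its partner *Tlr1* fell by 1.07, with not every tested probe called for *Tlr1*. The adaptor *Ticam1* fell by 0.78.

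Enzymes that make or clear small mediators rose. Of 20 listed inflammatory metabolic enzymes 14 were tested, 11 of them above background on all controls, 9 were called higher and none lower, with a median of 2.00. *Acod1*, which makes itaconate, was above background on no control array and rose at least 15.6-fold (q = 0.000131). *Ch25h*, which makes 25-hydroxycholesterol, lay at -2.15, -0.34 and -1.64 against 3.42, 3.79 and 3.85 (5.11 ± 0.58, q = 0.000125). *Enpp2* (autotaxin), which makes lysophosphatidic acid, lay at -1.30, 1.27 and -1.29 against 3.29, 4.05 and 3.69 (4.08 ± 0.85). Control 6 was the highest control of both genes and still below every TNFα array. *Upp1*, which splits uridine, rose by 3.81, with not every control array above background. The inducible nitric oxide synthase *Nos2* was not called (0.64, q = 0.255). Among 12 tested prostaglandin genes 2 were called higher (1 without TNFα 9, TNFα 14, control 1 or control 11) and 3 lower. The cyclooxygenase *Ptgs2* was not called (1.20, q = 0.081), the prostaglandin transporter *Slco2a1* rose by 1.51 and the receptor *Ptgfr* fell by 1.96. Without TNFα 14 or control 6, 1 prostaglandin gene was called lower.

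Of 10 tested superoxide and NADPH oxidase genes, 1 was called higher and 2 lower. Mitochondrial superoxide dismutase, *Sod2*, lay at 1.37, 1.19 and 1.26 against 2.58, 2.92 and 2.89 (1.53 ± 0.13, q = 1.45e-05), and catalase, *Cat*, fell by 0.75. Of 28 tested NRF2 targets 3 were called higher and 2 lower, and heme oxygenase, *Hmox1*, was not called (-0.17, q = 0.213). The cystine carrier *Slc7a11* rose by 1.68. Of 18 tested metallothionein, zinc and iron genes 7 were called higher and 1 lower, or 4 higher without TNFα 4 or TNFα 9 and none lower without TNFα 4, TNFα 14 or control 6. *Mt2*, a metal-binding metallothionein, lay at 4.51, 4.17 and 5.08 against 7.20, 7.14 and 7.77 (2.79 ± 0.31, q = 0.000122), and the zinc importer *Slc39a4* rose by 1.84. Of 21 tested amino acid carriers and enzymes 4 were called higher, or 2 without TNFα 4, TNFα 14 or control 6, and the largest rise was that of the arginine carrier *Slc7a2* (3.46, q = 0.00654). Not every control array of *Slc7a2* was above background, and its smallest rise among the alternatives was 1.27.

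Of 21 listed metalloproteinases 15 were tested, 5 were called higher, 2 lower and 8 not, with a median of 0.29. The collagenase *Mmp13* lay at -3.04, -3.15 and -2.98 on the controls and 3.04, 2.41 and 2.91 on the TNFα arrays (5.84 ± 0.22, q = 4.8e-08). The stromelysin *Mmp3* lay at 3.90, 4.77 and 3.96 against 7.87, 8.16 and 8.27 (3.91 ± 0.34, q = 1.97e-05). The gelatinase *Mmp9* lay at -4.71, -4.27 and -3.56 against -0.12, 0.01 and 0.50 (4.22 ± 0.35). *Mmp10* (stromelysin 2) rose by 4.84, and *Mmp19* (-1.70) and *Mmp23* (-1.44) fell. All TNFα arrays lay outside the range of the controls for these 6 genes. Of 10 tested ADAMTS proteases 3 were called higher and 4 lower, with a median of -0.58. *Adamts7*, which cuts cartilage matrix protein, rose by 3.41, whereas the aggrecanase *Adamts5* lay at -0.13, 0.57 and -0.06 against -2.97, -2.46 and -2.63 (-2.68 ± 0.42, q = 0.0012). *Adamts2*, which trims procollagen, fell by 1.48, and the aggrecanase *Adamts4* was not called (0.24, q = 0.586).

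Of 20 tested protease inhibitors and plasminogen activation genes 4 were called higher and 6 lower, or 3 lower without TNFα 4, control 6 or control 11. *Timp3*, the metalloproteinase inhibitor that binds to the matrix, lay at 0.57, 0.33 and 0.50 against -3.18, -2.45 and -3.26 and fell by 3.33 ± 0.27 (q = 1.33e-05). *Reck*, a membrane-anchored inhibitor of metalloproteinases, lay at 1.32, 2.11 and 1.63 against 0.13, 0.54 and 0.46 (-1.36 ± 0.26). *Timp1* was not called (0.68, q = 0.0677). The groups did not overlap for *Timp3* and *Reck*, and they overlapped for *Timp1*. *Serpinb2*, the plasminogen activator inhibitor of inflamed cells, rose by 4.39, with 1 control array above background.

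**Figure D4:**
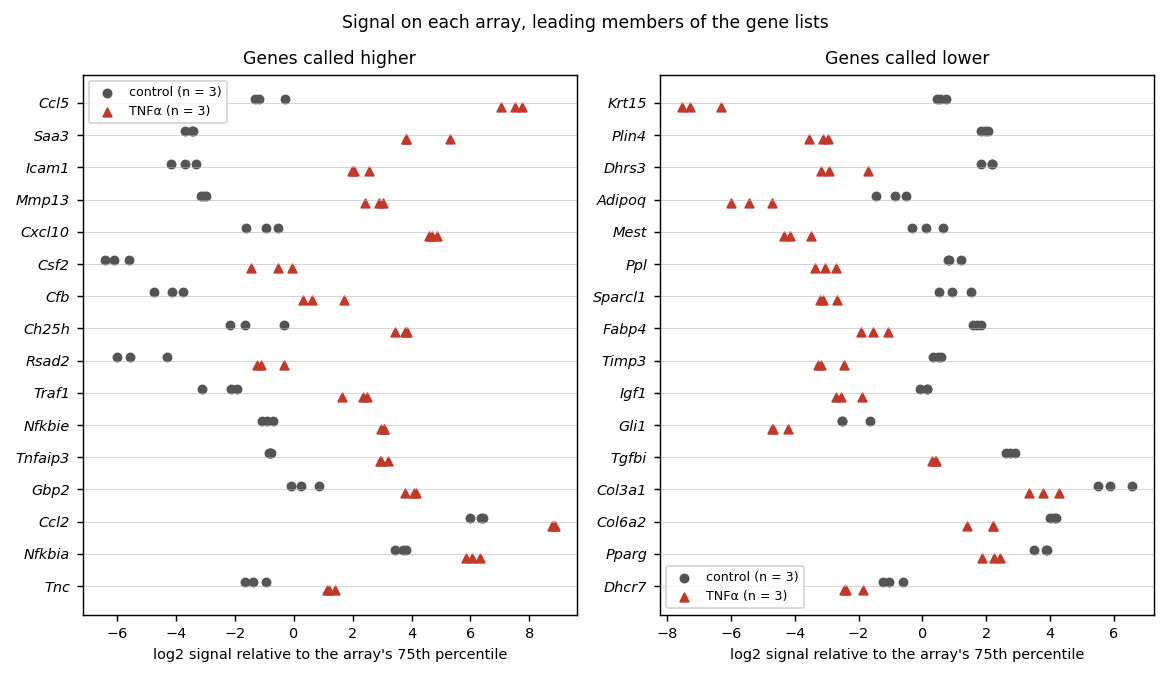
The log2 signal relative to the array's 75th percentile is shown for each of 3 control arrays (grey circles) and 3 TNFα arrays (red triangles), for 16 members called higher (left) and 16 called lower (right). In each of the 32 genes, chosen among called ones, all TNFα arrays lie on 1 side of all controls. The same held for 757 of all 856 genes called higher and 1063 of all 1106 called lower.

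Collagens of several classes fell, and the calls of the fibrillar ones depended on control 6. Of 11 fibrillar collagens 9 were tested, 1 was called higher and 6 lower, with a median of -0.95, and without control 6 none was called lower, against 3 without TNFα 4 or TNFα 14. Within the first slide the median of these 9 genes was -0.74 and within the second -1.39. *Col3a1*, the collagen of loose connective tissue, lay at 5.51, 6.57 and 5.87 on the controls and 3.35, 4.29 and 3.79 on the TNFα arrays (-2.14 ± 0.46, q = 0.00765). *Col1a1*, the main collagen of skin and bone, lay at 6.09, 6.77 and 6.62 against 5.53, 5.87 and 5.69 (-0.85 ± 0.20, q = 0.0112), and 2 of its 3 tested probes were called. Both genes were highest on control 6, and the groups did not overlap. *Col5a3*, a rarer chain of collagen V, lay at 0.34, 1.64 and 0.55 against 2.49, 2.26 and 2.28 and rose by 1.45 (q = 0.00671).

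Collagens outside the fibrillar class fell too. Of 22 other collagens 10 were tested, 1 was called higher and 6 lower, with a median of -0.91. The 3 chains of the microfibrillar collagen VI fell together. *Col6a1* lay at 7.01, 7.42 and 7.34 against 5.28, 6.00 and 5.84 (-1.52 ± 0.24, q = 0.00133), *Col6a2* at 3.99, 4.20 and 4.14 against 1.41, 2.23 and 2.23 (-2.09 ± 0.27) and *Col6a3* at 5.06, 5.57 and 5.28 against 3.47, 4.29 and 4.08 (-1.37 ± 0.26). *Col12a1*, which coats fibrils, fell by 1.60. No TNFα array reached the lowest control in these 4 genes. The member called higher was *Col8a1* (0.81), a call lost without any 1 of 5 of the 6 arrays, control 6 being the exception. Among 16 tested basement membrane genes 1 was called higher (2 without TNFα 9 or control 11) and 5 lower, or 3 lower without TNFα 4, TNFα 14 or control 6. The paired chains of collagen IV, *Col4a1* (-1.71) and *Col4a2* (-1.63), fell, as did the laminin chain *Lama5* (-1.61).

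Cross-linking, elastic fibre and proteoglycan genes followed in part. Of 21 tested genes of collagen processing and cross-linking none was called higher and 4 lower, among them the lysyl hydroxylase *Plod1* (-1.19) and the lysyl oxidase *Lox* (-0.93). Of 16 tested elastic fibre genes 1 was called higher and 6 lower, with a median of -0.47. *Efemp1*, a fibulin, lay at 5.81, 5.89 and 5.94 against 4.00, 4.77 and 4.54 (-1.39 ± 0.24, q = 0.00197), *Ltbp3*, which stores latent TGFβ, fell by 1.10, and its relative *Ltbp2* rose by 1.20. Of 23 tested proteoglycan and hyaluronan genes 1 was called higher and 6 lower, or 2 higher and 3 lower without control 6. Fibromodulin, *Fmod*, which regulates collagen fibrils, lay at -2.24, -0.87 and -2.24 against -5.52, -4.70 and -5.06 (-3.30 ± 0.49, q = 0.000879), and versican, *Vcan*, fell by 1.71. For *Fmod*, not every TNFα array was above background. Decorin, *Dcn*, another proteoglycan of the fibrils, lay at 4.82, 5.86 and 4.53 against 6.80, 7.46 and 6.69 and rose by 1.92 ± 0.44 (q = 0.0104). These 3 genes were each separated between the groups.

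Of 21 tested matricellular genes 3 were called higher and 6 lower, and without TNFα 14 or control 6 1 was called higher. Tenascin C, *Tnc*, a protein of wounds, lay at -0.96, -1.66 and -1.38 against 1.41, 1.18 and 1.14 (2.70 ± 0.22, q = 1.33e-05). *Sparcl1*, a relative of osteonectin, lay at 0.51, 1.52 and 0.93 against -3.20, -2.67 and -3.10 (-3.99 ± 0.43, q = 8.75e-05). *Tgfbi*, a matrix protein named for its induction by TGFβ, lay at 2.92, 2.61 and 2.75 against 0.40, 0.29 and 0.43 (-2.25 ± 0.16, q = 3.41e-06). The direction thus differed among proteins of this class, with no overlap in any of the 3. Fibronectin, *Fn1*, was not called (-0.30, q = 0.355), nor were the smooth muscle genes *Acta2* (0.50, q = 0.255) and *Tagln* (-0.31, q = 0.645). Of 16 tested smooth muscle genes 1 was called higher (none without control 6) and 3 lower. Of 17 tested integrin subunits 1 was called higher (none without TNFα 4 or control 6) and 3 lower, with *Itga11*, a collagen receptor subunit, at -2.05.

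Genes of the adipocyte lineage formed the list with the lowest median. Of 24 listed genes 18 were tested, all of them above background on every control array, none was called higher and 12 were called lower. The median was -1.75, or -1.63 with the 3 members below background on every TNFα array set to their bound. *Plin4*, a coat protein of lipid droplets, lay at 2.05, 1.96 and 1.83 on the controls and -3.56, -3.12 and -2.95 on the TNFα arrays (-5.10 ± 0.25, q = 4.29e-07). Adiponectin, *Adipoq*, lay at -1.44, -0.85 and -0.52 against -6.0, -4.71 and -5.42 (-4.57 ± 0.43, q = 3.58e-05), and 1 TNFα array was above background. The fatty acid carrier *Fabp4* lay at 1.60, 1.72 and 1.85 against -1.55, -1.08 and -1.91 (-3.45 ± 0.24, q = 3.34e-06). Every TNFα array of these 3 genes was lower than every control. The transcription factors that drive the lineage fell less: *Pparg* lay at 3.91, 3.50 and 3.87 against 2.25, 1.88 and 2.42 (-1.52 ± 0.15, q = 4.13e-05) and *Cebpa* at 1.30, 2.28 and 1.58 against -0.08, -0.12 and -0.07 (-1.79 ± 0.33, q = 0.0031). *Cidec*, a lipid droplet protein, fell at least 14.4-fold and resistin, *Retn*, at least 7.48-fold. The C/EBP factor *Cebpd*, which acts early in adipogenesis and in the acute-phase response, fell by 1.49, while *Cebpb* was not called (0.23, q = 0.0899).

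Sterol synthesis fell by small steps along the pathway. Of 39 listed cholesterol and fatty acid genes 38 were tested, all of them above background on every array, none was called higher and 20 were called lower, with a median of -0.69, and 9 of these fell at least 2-fold. Without control 6, 1 was called higher. *Hmgcs1*, which opens the mevalonate pathway, lay at 5.87, 5.74 and 5.76 against 4.30, 4.72 and 4.52 (-1.21 ± 0.15, q = 0.000293). *Dhcr7*, which makes cholesterol in the last step, lay at -1.22, -0.61 and -1.05 against -2.38, -1.87 and -2.45 (-1.32 ± 0.19, q = 0.000674). Between these steps the kinase *Pmvk* (-1.17) and the reductase *Hsd17b7* (-1.26) fell as well. The TNFα arrays of *Hmgcs1* and *Dhcr7* all lay under the controls.

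Of 28 tested glycolysis and hypoxia-response genes none was called higher (1 without control 1) and 8 lower, with a median of -0.38. *Pdk1*, the kinase that shuts pyruvate out of mitochondria, lay at 1.96, 2.22 and 2.19 against 0.57, 1.04 and 0.86 (-1.33 ± 0.16, q = 0.000149), with 3 of 4 tested probes called. *Ankrd37*, a hypoxia target, lay at -0.47, -0.61 and -0.36 against -1.78, -1.77 and -1.75 (-1.20 ± 0.11). The glycolytic enzyme *Eno2* (-0.91) and the lactate carrier *Slc16a3* (-1.10) fell. The mitophagy receptor *Bnip3* fell by 1.08, against 2 control arrays, since it had no usable spot on control 11.

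Some keratins, which the controls expressed, were among the genes that fell furthest. Of 34 listed keratin and epithelial junction genes 15 were tested, none was called higher and 7 lower, with a median of -0.33, so that the falls lay in a subset. The 7 were 4 keratins and 3 junction genes. *Krt15* lay at 0.54, 0.46 and 0.75 on the controls and was above background on no TNFα array (-7.53, -7.29 and -6.32), a fall of at least 61.8-fold (q = 2.82e-07). *Krt13* fell at least 12-fold and *Krt19* at least 7.15-fold, again with no TNFα array above background. Periplakin, *Ppl*, a desmosome-linked protein, lay at 0.85, 0.79 and 1.21 against -3.38, -3.05 and -2.72 (-4.04 ± 0.29, q = 5.05e-06). The 3 TNFα arrays agreed in placing these genes below all controls.

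Members of several developmental pathways fell. Of 12 tested genes of retinoic acid synthesis and response 1 was called higher and 3 lower. *Dhrs3*, which turns retinaldehyde back to retinol, lay at 1.85, 2.18 and 2.19 against -3.17, -1.72 and -2.92 (-4.67 ± 0.37, q = 9.11e-06), and the receptors *Rara* (-1.58) and *Rxra* (-0.75) fell. *Rarres2*, the gene of the chemoattractant chemerin, lay at 0.60, 0.24 and 0.59 against 2.00, 2.69 and 2.23 and rose by 1.89. Of 8 tested Hedgehog genes none was called higher and 3 lower, with *Gli1*, the transcription factor that reads out the pathway, at -2.53, -2.53 and -1.63 against -4.67, -4.72 and -4.22 (-2.34 ± 0.30, q = 0.000269). Of 16 tested Wnt genes 1 was called higher (2 without TNFα 9) and 6 lower, a number that came to 3 without TNFα 9, TNFα 14 or control 6 and to 2 without TNFα 4 or control 11. The ligand *Wnt16* kept its call in each of these and fell by 3.66, with not every TNFα array above background. Of 8 tested Notch genes 1 was called higher, the DNA-binding partner *Rbpj* (0.81), and *Notch3* was called lower with overlapping groups, a call lost without any 1 of the 3 TNFα arrays, control 6 or control 11.

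In the IGF axis 2 of 15 tested genes were called higher (1 without TNFα 14 or control 1) and 4 lower. *Igf1*, the growth factor, lay at -0.07, 0.14 and 0.14 against -2.71, -1.90 and -2.55 (-2.41 ± 0.26, q = 9.43e-05). *Pappa*, the protease that frees IGF from its binding proteins, lay at 0.04, 0.13 and -0.10 against -1.94, -1.83 and -2.02 (-1.89 ± 0.18, q = 4.3e-05). The binding protein *Igfbp6* (-1.33) and the receptor substrate *Irs2* (-1.01) fell, while *Stc2*, which blocks that protease, rose by 2.34. Of 10 tested imprinted growth-control genes 2 were called higher (1 without TNFα 4, TNFα 9, control 1 or control 11) and 4 lower. *Mest*, an imprinted hydrolase-like gene, lay at -0.34, 0.64 and 0.10 against -3.49, -4.35 and -4.16 (-4.29 ± 0.26, q = 1.61e-06). *Peg3* (-1.49), *Dlk1* (-1.18) and the noncoding *Mirg* (-2.51) fell too, with no overlap between the groups in any of the 4. For *Mirg*, not every TNFα array was above background.

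Of 17 tested BMP genes 3 were called higher and 4 lower. *Id4*, an inhibitor of helix-loop-helix factors, lay at 0.06, -0.10 and -0.23 against -2.46, -2.53 and -2.69 (-2.49 ± 0.13, q = 5.79e-07), and the pathway inhibitor *Smad6* fell by 1.47. The BMP antagonist *Grem1* lay at 4.19, 3.91 and 4.17 against 4.82, 4.69 and 5.02 (0.81 ± 0.12, q = 0.000895). The receptor *Bmpr1b*, above background on no control array, rose at least 3.02-fold. Of 22 tested TGFβ ligands, receptors and feedback genes 3 were called higher and 1 lower (2 lower without TNFα 14, control 1 or control 11). *Lrrc32*, which anchors latent TGFβ, rose by 1.63. The ligand *Tgfb1* rose by 0.97, a call lost in 4 of 18 alternatives. The ligand *Tgfb2* fell by 1.13, and the feedback inhibitor *Smad7* was not called (0.53, q = 0.131).

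Some growth factors of vessels and nerves rose. Of 31 tested factors and receptors of the FGF, HGF, EGF, PDGF and VEGF families 8 were called higher and 1 lower (2 lower without control 6 or control 11), with a median of 0.04. The lymphatic growth factor *Vegfc* lay at 2.22, 2.14 and 2.49 against 4.13, 3.89 and 4.35 (1.92 ± 0.12, q = 1.91e-06). *Vegfd*, which shares its receptor, lay at 4.46, 4.75 and 4.74 against 3.1, 3.67 and 3.43 (-1.19 ± 0.22, q = 0.00371). The 2 lymphatic factors thus moved in opposite directions, each without overlap. The neurotrophic factor *Gdnf* rose by 1.85. Of 26 tested guidance genes 7 were called higher and 6 lower. The repellent *Sema3e*, above background on no TNFα array, fell at least 2.04-fold, the ephrin receptor *Epha4* fell by 1.99 and *Sema3c* rose by 0.94.

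Transcription factors of mesenchymal and positional identity shifted by less than 4-fold. Of 22 tested EMT and mesenchymal factors 4 were called higher and 8 lower, or 4 lower without TNFα 4. *Tfap2a*, a factor of the neural crest, lay at 2.82, 3.19 and 3.03 against 1.29, 1.41 and 1.30 (-1.71 ± 0.19, q = 9.96e-05). The paired factors went apart, with *Twist2* higher by 0.98 and *Twist1* at -1.06, and *Prrx1* higher by 0.70 and *Prrx2* at -1.51. *Snai1* fell by 0.88. Of 27 tested Hox genes 1 was called higher (none without TNFα 4, TNFα 14 or control 6, and 2 without TNFα 9) and 5 lower, or 8 lower without TNFα 14. The 5 were *Hoxc4* (-0.95), *Hoxc6* (-0.93), *Hoxc8* (-1.49), *Hoxc9* (-1.0) and *Hoxc10* (-1.11), genes of 1 cluster that set position along the body. *Hoxc8* lay at 0.24, 0.35 and 0.35 against -1.48, -1.26 and -1.02 (q = 4.52e-05), with all TNFα arrays below the controls.

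Of 26 tested AP-1, EGR and immediate-early genes 7 were called higher and 1 lower, or 4 higher and 2 lower without control 6. *Ier3*, a stress-induced survival gene, lay at 0.13, -0.19 and -0.53 against 2.35, 1.84 and 2.21 (2.32 ± 0.20, q = 1.97e-05). *Fosl1* (1.04) and the mRNA-destabilizing *Zfp36* (0.81) rose, *Fos* fell by 0.94 and *Egr1* was not called (0.00, q = 0.998). Of 25 tested BCL2 family and apoptosis genes 3 were called higher, led by the death agonist *Bid* (2.25, q = 2.44e-05), and *Trp53* rose by 0.89. Among 19 tested CDK inhibitors, D cyclins and Myc genes 2 were called higher (1 without TNFα 4, TNFα 14 or control 6) and 4 lower, with *Cdk6* higher by 0.90 and the inhibitors *Cdkn2c* (-0.76) and *Cdkn2d* (-0.82) lower. Of 14 tested cathepsins and lysosomal genes 2 were called higher (1 without control 11) and 1 lower (none without TNFα 14 or control 6). The invariant chain *Cd74* rose by 2.49. Of 11 tested skeletal and cartilage genes 1 was called higher and 2 lower, and none of the 3 calls held in all fits that left out 1 array.

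Proliferation and housekeeping lists stayed near 0. Of 38 tested G1/S and replication genes and 40 tested G2/M and mitosis genes none was called, with medians of 0.08 and -0.04, where 6.5% of all genes tested were called higher and 8.4% lower. The fold changes ranged from -0.16 to 0.46 in the first list and from -0.45 to 0.22 in the second. Without control 6, 1 G2/M gene was called lower. *Mki67*, the proliferation antigen, lay at 4.82, 4.65 and 4.73 against 4.66, 4.52 and 4.74 (-0.07, q = 0.568), and the groups overlapped. None of 39 tested respiratory chain subunits (median 0.00) and none of 29 ribosomal proteins (median 0.17) was called. The fold changes ranged from -0.34 to 0.40 among the subunits. Those of the ribosomal proteins all lay above 0, from 0.06 to 0.31, a small shift in 1 direction. Of 31 genes of ER folding and the unfolded protein response 1 was called, the sensor *Ern1* (1.38, q = 0.00146), and the chaperone *Hspa5* was not (0.32, q = 0.0787). Without TNFα 14 or control 11 this list had 2 genes called higher, and without TNFα 9 or control 11 it had 1 called lower.

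Some of the 15 largest rises and the 15 largest falls lay outside the lists. The phosphatase of lymphocyte signalling *Ptpn22*, above background on 1 control array, lay at -5.09, -6.98 and -6.92 against 0.28, -0.08 and -0.53 (6.16 ± 0.73, q = 0.000161). The transcript *U90926*, above background on 2 control arrays, rose by 6.08, and the medium-chain fatty acid receptor *Gpr84* at least 18.8-fold. Among the falls, the microglial lipid receptor *Trem2* (-1.91, -1.17 and -1.51 on the controls) was above background on no TNFα array and fell at least 14.3-fold, and the prolactin-induced protein gene *Pip* at least 27.9-fold. *Ppp1r3c*, which targets a phosphatase to glycogen, lay at -0.22, 1.35 and 0.24 against -4.81, -3.68 and -4.60 (-4.85 ± 0.59, q = 0.000198). *Sncg* (γ-synuclein) fell by 4.53 and the matrix protein gene *Spon2* by 4.71. All of these genes were separated between the groups.

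TNFα was then set against IL-1β, which reaches NF-κB through other receptors, to ask where the 2 arms differ in a direct test. The 2 groups differ in dose and perhaps in time, and both contrasts use the same TNFα arrays. Of the 13172 genes, 426 were higher with TNFα than with IL-1β (3.23%) and 661 were lower (5.02%). Fewer were called without TNFα 14 (283 and 372), TNFα 4 (411 lower), IL-1β 10 (364 lower) or IL-1β 15 (380 lower). Of the 1141 list members tested, 139 were higher and 128 lower. Of the 39 antiviral genes 26 were higher with TNFα than with IL-1β and none lower, and of the 20 MHC class I genes 12 were higher and none lower. Of the 20 NF-κB genes 9 were higher and 1 lower. *Ccl5* lay at 2.03, 1.80 and 1.88 on the arrays IL-1β 5, 10 and 15, with TNFα higher by 5.58 (q = 3.17e-06), and *Icam1* at -2.06, -1.96 and -1.42 (4.01, q = 6.31e-06). Both genes were thus between the controls and TNFα on all IL-1β arrays. The chemokine *Cxcl5* lay at 1.25, 1.68 and 1.12 on the controls, 4.43, 4.71 and 4.01 on the TNFα arrays and 6.26, 6.5 and 6.66 on the IL-1β arrays, a difference of -2.18 (q = 2.33e-05). *Lcn2* lay at 2.26, 4.72 and 3.14 on the IL-1β arrays against -3.47, -2.79 and -3.78 with TNFα (-6.84, q = 0.00107), while *Saa3* lay at 3.20, 5.27 and 3.24 and was not called between the 2 cytokines (0.38). *Cebpd* lay at 3.40, 3.81 and 4.00 on the IL-1β arrays, above the controls, and at 0.72, 0.96 and 0.93 with TNFα (-2.91, q = 1.25e-05).

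The falls of lipid genes differed between the 2 cytokines as well. Of the 18 adipocyte genes 12 were lower with TNFα than with IL-1β and none higher. *Plin4* lay at 1.15, 1.97 and 1.19 on the IL-1β arrays (-4.59, q = 3.17e-06) and *Fabp4* at 1.27, 1.44 and 2.14 (-3.34, q = 1.25e-05). Of the 38 cholesterol and fatty acid genes 13 were lower with TNFα and none higher, with *Hmgcs1* at 5.35, 5.62 and 5.32 on the IL-1β arrays (-0.85, q = 0.00598). *Timp3* lay at 0.03, 0.48 and -0.01 with IL-1β, near the controls (-3.03, q = 5.98e-05).

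Against TGFβ1, the other cytokine of the study, 1133 genes were higher with TNFα (8.6%) and 886 lower (6.73%), so that 56.1% of the called genes were higher. With the array median in place of the 75th percentile these were 962 and 1239 genes (43.7% higher), and the median over all probes moved from -0.02 to -0.137, so the split depends on the scaling. Of the 39 antiviral genes 37 were higher with TNFα than with TGFβ1, and of the 9 fibrillar collagens none was higher and 5 were lower. *Col1a1* lay at 6.91, 7.20 and 7.13 on the arrays TGFβ1 2, 7 and 12 (-1.38, q = 0.000322) and *Efnb1*, an ephrin ligand, at 4.37, 4.28 and 4.25 against 0.73, 0.13 and 0.96 (-3.69, q = 8.82e-08). *Vegfa*, the main growth factor of vessels, was called higher with TNFα than in the controls (1.46), a call lost in 2 of 18 alternatives. On the TGFβ1 arrays it lay at 4.70, 4.8 and 4.60, above TNFα (-2.79, q = 9.29e-05). The TGFβ1 arrays exceeded every TNFα array in these 3 genes. Some genes were low with both: *Timp3* lay at -3.03, -2.32 and -3.38 with TGFβ1 and was not called against TNFα (-0.05, q = 0.907), and *Id4* lay at -3.52, -4.03 and -3.62, lower still than with TNFα (1.17, q = 4.7e-05).

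**Figure D5:**
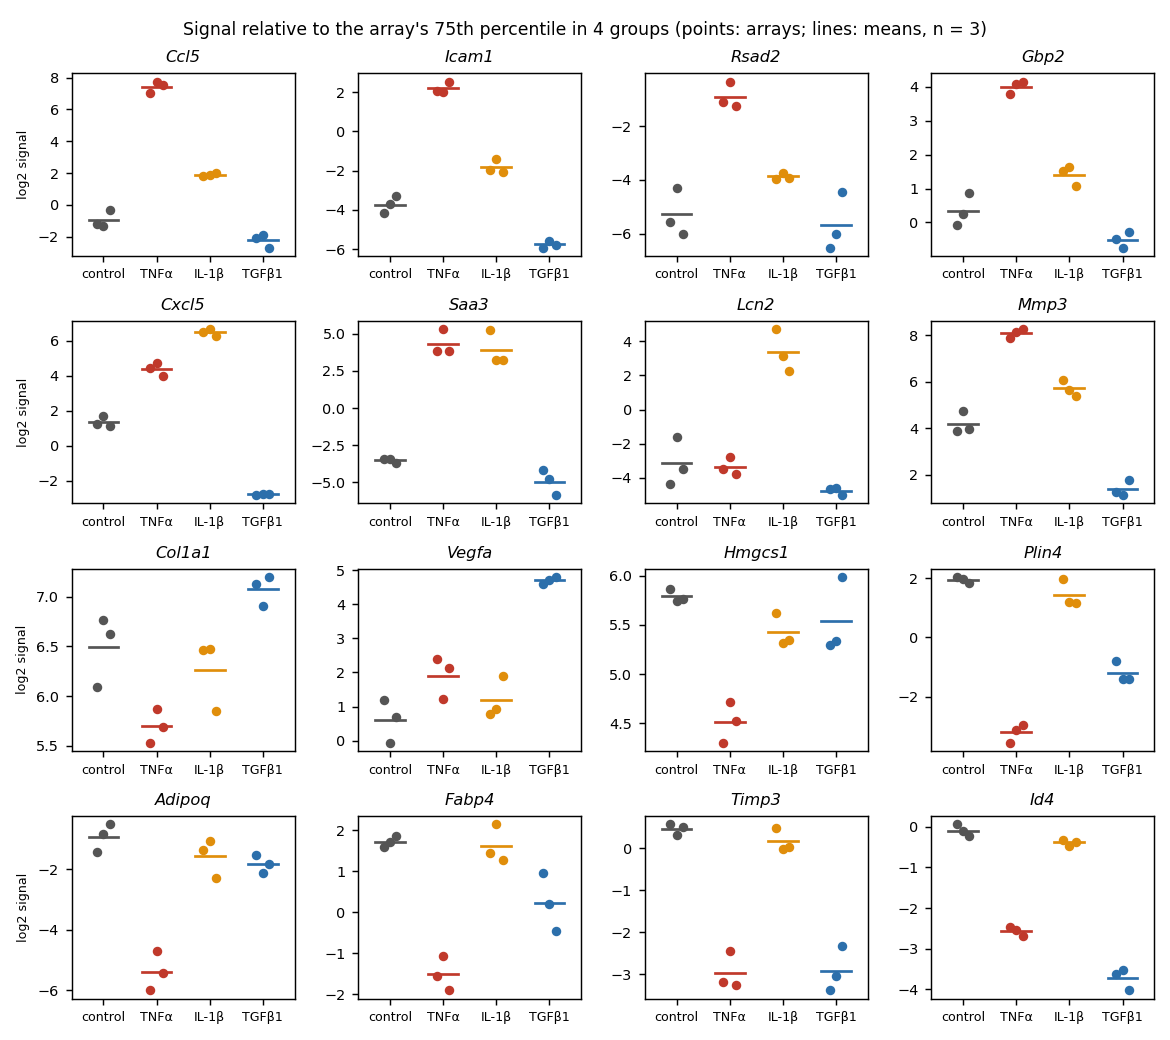
The log2 signal relative to the array's 75th percentile is shown for 16 genes on each of 3 arrays (points) of control, TNFα, IL-1β and TGFβ1 cells, with the mean of each group as a line and an axis of its own for each gene. *Lcn2* stands high on the IL-1β arrays alone, *Plin4* and *Adipoq* are lowest on the TNFα arrays, and *Timp3* and *Id4* are low with TNFα and TGFβ1.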

How the data were processed

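RNA of 15 cultures was labelled in 1 colour and hybridised to Agilent whole-mouse-genome arrays, which lay on 2 slides. The deposited intensity values are the processed signals that the authors obtained with Agilent Feature Extraction 10.7.3.1 (corrected for background, not normalised between arrays). The 62976 spots per array held 56605 probes besides controls, of which 33767 carry a gene name (23462 names). For each array, log2 of the deposited intensity minus its 75th percentile was taken, spots of a probe were averaged, and control spots and outlier spots were left out. The arrays' number limits the precision, and 48.3% to 54.8% of the probes were well above background on the controls and 51.6% to 52.9% on the TNFα arrays.

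Groups came from the labels. A linear model of all 15 arrays with group and slide (9 residual degrees of freedom) was fitted with limma 3.58.1 (lmFit, eBayes; R 4.3.3, statmod 1.5.0 and version 1.17.8 of data.table), with Benjamini-Hochberg adjustment over all probes tested in a contrast. A probe was tested if well above background on all arrays of TNFα or of control cells, and the probe with the highest mean log2 signal stood for its gene. The scripts were tested on simulated data. For a gene above background on no array of a group, the fold change is a bound: the mean of the brighter group against the lowest signal well above background on the arrays of the dimmer group, or the probe's own signal where that was higher. The text names, for each gene list, up to 5 members each with the largest called rises and falls and the defining members marked in the list, and the 15 largest rises and falls of all genes; exceptions are stated, and a few such genes are not reported here. Members and lists were chosen with earlier results of these data known. Alternatives were other sets of arrays, slide as a random block, runs of label numbers as a further block, normexp correction on median spot and median background signals with an offset of 50 (mean signals were not used here), quantile and median scaling, other filters and thresholds, and leaving out each array. Promoter sequences came from RefSeq (GRCm38.p6).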

Additional observations from a re-analysis of the deposited data

How the results depend on the processing

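Against the controls, 425 genes were called higher and 546 lower at a fold change of at least 2, and 510 higher at a q-value below 0.01. Leaving out 1 array gave 570 to 926 genes higher and 750 to 1159 lower. For TNFα against IL-1β, the 6 arrays of both groups alone gave 225 higher and 232 lower, label runs with the slide as blocks 689 higher, no filter on dim probes 397 lower, a fold change of at least 2 226 and 314, and a q-value below 0.01 239 and 313. Leaving out 1 array gave 283 to 426 higher and 364 to 766 lower. Against TGFβ1, a fold change of at least 2 gave 712 and 457, and leaving out 1 array 1000 to 1114 and 812 to 874. With the array median in place of the 75th percentile, 962 genes were higher and 1239 lower than with TGFβ1, so that most calls were lower instead of higher. The cause of these shifts was not tested, except that stricter thresholds keep fewer genes by construction. Named genes were followed only against the controls, where none changed sign that was called in either fit. Genes not called could change sign, such as *Lcn2* (-0.84 to 0.66) and *Egr1* (-0.23 to 0.17). The bounds given as a least fold change hold for the main processing only. Fitted log2 changes in some alternatives were smaller than these bounds. The smallest were -1.96 for *Krt13*, -1.15 for *Krt19*, 2.3 for *Gpr84* and 2.33 for *Acod1*, for example. Of 345 named genes, 200 neither lost nor gained a call under any of 18 alternatives in which they were tested, 6 of which left out 1 array. The filter for probes above background on all arrays of both groups kept 289 of the 345. The groups compared share no label number, so none was paired by number. With the runs of label numbers (1 to 5, 6 to 10, 11 to 15), each of which holds 1 array a group, as a further block beside the slide, 1054 genes were higher and 1318 lower than in the controls. Dim probes, and 3 arrays a group, limit what could be detected.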
